A study of Mus musculus with 3 samples.

Results

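Stellate and fibroblast nuclei were taken from single-nuclei RNA sequencing (sNuc-Seq) of frozen mouse liver, in which each nucleus carries a barcode and each RNA molecule is counted once by its unique molecular identifier (UMI). A nucleus was kept with UMIs from at least 3 different genes of Reln, Lrat, Dcn, Ecm1, Pdgfrb, Colec11, Rgs5, Col3a1, Des and Lum, which together made at least 0.2% of its UMIs. It was left out with UMIs from more than 1 gene of a set that marks endothelial cells (Stab2, Ptprb, Kdr), macrophages (Csf1r, Clec4f, Cd5l, Gpnmb, F13a1) or lymphocytes (Skap1, Bank1). This gave 993 of the 28336 nuclei with 200 to 5000 genes and at most 5% mitochondrial UMIs. The normal diet (ND) mouse gave 211 of them, the first STZ-HFHC mouse (STZ-HFHC 1) 277 and the second (STZ-HFHC 2) 505. Where 3 values stand together below, they follow this order, and where a pair is given for STZ-HFHC, STZ-HFHC 1 comes first.

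All animals were male C57BL/6J mice with 1 library each, so that ND had 1 replicate and STZ-HFHC had 2. The STZ-HFHC mice received 0.2 mg of streptozocin (STZ), a toxin of the insulin-producing beta cells, under the skin at 3 days of age, and from 4 weeks of age they ate a diet rich in fat and cholesterol (HFHC). They served as a model of liver fibrosis in metabolic dysfunction-associated steatohepatitis, while the ND mouse received neither agent. STZ and diet came together in both treated mice, and the library of ND carried another prefix in its label (3rd) than those of STZ-HFHC (2nd). The meaning of the prefix is not given in the sources used here, and STZ, diet and whatever it marks cannot be told apart. The stellate and fibroblast nuclei held 525766, 722661 and 1239030 UMIs in all, with medians of 1876, 2145 and 2136 UMIs per nucleus. Of all deposited barcodes, ND shared 29 with STZ-HFHC 1 and 30 with STZ-HFHC 2, which shared 32 with each other.

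Hepatic stellate cells lie between the sinusoidal endothelium and the hepatocytes, where they store vitamin A as retinyl esters and act as pericytes of the sinusoid. In injured liver they are the main source of collagen-producing myofibroblasts, which lay down the fibrous matrix of the scar, and portal fibroblasts around the bile ducts are a smaller source. Platelet-derived growth factor, transforming growth factor beta (TGF-β), angiotensin and the Hippo pathway factors YAP and TAZ are known to act on this conversion.

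The selected nuclei also carried stellate markers that the selection did not use. Levels were expressed as the UMIs of a gene per 1000000 UMIs of the stellate and fibroblast nuclei of a library, or of the other nuclei named (CPM). All 15 genes of a stellate marker list were detected in each library, but 5 of them, with Reln (the matrix protein reelin) the most abundant, had chosen the nuclei. The 10 others summed to 2155, 2268 and 2973 CPM, beside 123, 267 and 207 CPM in endothelial nuclei and 56.9, 81.6 and 70.9 CPM in hepatocyte nuclei, which were chosen by markers of their own. A list of 12 portal fibroblast markers summed to 108, 148 and 74.3 CPM, with 6, 11 and 8 of the genes detected, and Thy1 was at 0 in all 3 libraries. Acta2, the smooth muscle actin of myofibroblasts, named after its values were seen, had 0, 5 and 11 UMIs.

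RNA of other cell types was also present. The 10 hepatocyte markers summed to 13175 CPM in ND and 5709 and 7326 CPM in STZ-HFHC, with Cps1 the most abundant, and the median nucleus held 1.09%, 0.522% and 0.758% of its UMIs in them. The endothelial list was more even, at 536, 612 and 656 CPM, led by Eng. The macrophage list gave 89.4, 181 and 135 CPM, and the T, NK and B cell list 64.7, 238 and 274 CPM. The mesothelial list reached 181 CPM in STZ-HFHC 1, led by Gpm6a, beside 17.1 CPM in ND and 7.26 CPM in STZ-HFHC 2. Smooth muscle markers gave 64.7, 112 and 158 CPM, and cholangiocyte markers 62.8, 107 and 86.4 CPM. Among these lists, 3 endothelial, 5 macrophage and 2 lymphocyte genes were used to leave nuclei out. The markers not used in the selection summed to 323, 372 and 409 CPM for the endothelial list, 55.2, 102 and 92.0 CPM for the macrophage list and 51.4, 210 and 225 CPM for the T, NK and B cell list. ND was the highest in hepatocyte markers and the lowest in leukocyte markers, also over the markers not used. The part of these other cell types in the differences below was not tested, except that each difference was also set against endothelial and hepatocyte nuclei of the same libraries.

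The genes that chose the nuclei are given without a test. Reln had 2811 CPM in ND and 3923 and 3364 CPM in STZ-HFHC. Dcn, the proteoglycan decorin, had 1518, 1763 and 1807 CPM. Ecm1, a matrix protein that holds TGF-β latent, had 702 CPM in ND beside 192 and 318 CPM in STZ-HFHC. Ecm1 was therefore lower in both STZ-HFHC libraries, as was the collectin gene Colec11 at 354, 169 and 265 CPM. Rgs5, a regulator of G protein signalling in pericytes, had 171 CPM in ND and 488 and 571 CPM in STZ-HFHC. Col3a1, type III collagen, had 101 CPM in ND and 711 and 282 CPM in STZ-HFHC. Both genes were higher in each STZ-HFHC library than in ND, while Lrat, which esterifies retinol for storage, had overlapping levels of 91.3, 80.3 and 124 CPM. Pdgfrb had 162, 130 and 155 CPM, Des 30.4, 26.3 and 46.8 CPM and Lum 38.0, 58.1 and 35.5 CPM. A UMI of Reln was found in 96.2%, 96.0% and 97.0% of the nuclei, beside 4.42%, 4.28% and 2.94% of hepatocyte nuclei, whose median depths were 3571, 4275 and 4880 UMIs.

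**Figure D1:**
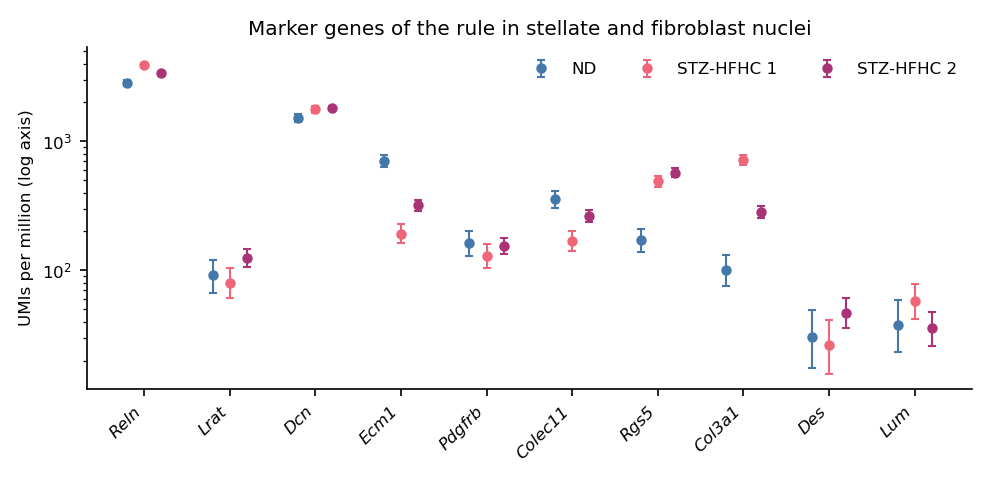
Levels of the 10 marker genes that chose the stellate and fibroblast nuclei, in CPM on a log axis, for ND, STZ-HFHC 1 and STZ-HFHC 2. Points are summed counts of each library and bars are exact Poisson 95% intervals, which cover counting error only. Ecm1 and Colec11 were highest in ND, and Rgs5 and Col3a1 were lowest in ND.

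Many nuclei lay close to the limits of the selection. Exactly 3 marker genes were found in 95, 88 and 170 of the nuclei, with medians of 0.479%, 0.563% and 0.508% of UMIs in the markers. A further 92, 70 and 122 nuclei had 2 marker genes and were otherwise inside the limits, at medians of 0.381%, 0.398% and 0.324%. Nuclei with more than 1 gene of the excluded cell types, otherwise inside, numbered 128, 270 and 413. Between 0.2% and 0.25% of UMIs in the markers were held by 26, 11 and 19 of the selected nuclei, and between 0.15% and 0.2% by 29, 13 and 21 nuclei left out.

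Stellate and fibroblast nuclei made up 2.48% of ND nuclei (95% Clopper-Pearson interval 2.16 to 2.84), 3.11% of STZ-HFHC 1 (2.75 to 3.49) and 4.62% of STZ-HFHC 2 (4.24 to 5.03). Both STZ-HFHC shares were above the ND share, although the intervals of ND and STZ-HFHC 1 overlapped. The STZ-HFHC shares also lay outside each other's intervals, with ratios to ND of 1.25 and 1.86. The order of the libraries was the same in each of the other selections made. Without Dcn, Col3a1 and Lum the shares were 1.25%, 1.502% and 2.64%, and with every nucleus thinned to 1000 UMIs they were 1.99%, 3.54% and 4.76%. With 1 mouse against 2, an exact two-sided permutation test cannot go below p = 0.33, and no test was made. These intervals, and those of all levels, cover counting error only.

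**Figure D2:**
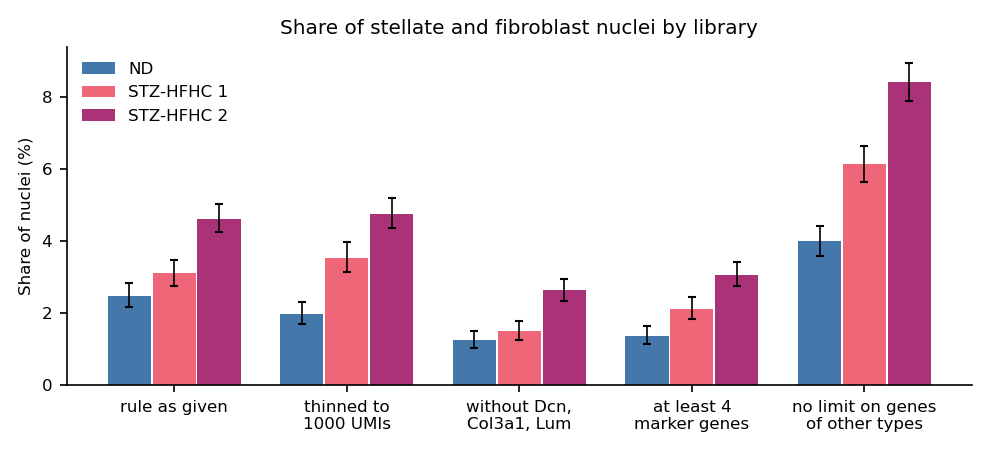
Share of stellate and fibroblast nuclei among all nuclei kept, in percent, for ND, STZ-HFHC 1 and STZ-HFHC 2 under the rule as given and under 4 other selections. Bars are shares and whiskers are 95% Clopper-Pearson intervals. The order of the libraries was the same under each of the 5 selections, with ND lowest and STZ-HFHC 2 highest.

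Clustering of the 993 nuclei gave 7 subclusters, which followed the libraries closely and are described without a test. Subcluster 1, the only one with a stellate-like name, had 12 of 15 stellate markers raised over the other nuclei and was led by Adra2b, Prelp, Angptl6, Fcna and Gdf2. It held 36, 2 and 32 nuclei, or 17.1%, 0.722% and 6.34% of the stellate and fibroblast nuclei of each library. Subcluster 2, hepatocyte-like by its markers, held 145 ND nuclei and 0 of STZ-HFHC, where a count of 0 allows up to 3 nuclei, and was led by Gm15622 and the hepatocyte gene Bhmt, so it may be the ND library rather than a type. Subclusters 4 (8, 180 and 302 nuclei, led by Fos) and 5 (3, 47 and 136 nuclei, led by the chemokine gene Ccl2) held most of the STZ-HFHC nuclei. A UMI of Fos was found in 7.35% of the nuclei of subcluster 4, and a UMI of Ccl2 in 11.3% of those of subcluster 5, so few nuclei carried these leading genes. Subcluster 3 (9, 23 and 13 nuclei), also hepatocyte-like, was led by mitochondrial genes. Subcluster 7 (2, 5 and 11 nuclei) was led by leukocyte genes.

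Subcluster 6 carried both portal fibroblast and mesothelial markers. It held 8, 20 and 11 nuclei and was led by Itgbl1, Gpm6a and Bnc2, with a UMI in 23.1%, 7.69% and 17.9% of its nuclei. In this subcluster 7 of 12 portal fibroblast markers and 6 of 7 mesothelial markers, among them Msln and Wt1, were raised over the other nuclei, so it took no name. Its STZ-HFHC 1 nuclei had 1915 CPM of Col1a1 and 3589 CPM of Col3a1, beside 34.3 CPM of Col1a1 and 316 CPM of Col3a1 in subcluster 4 of the same library. For the fibrillar collagens below, levels without subclusters 3, 6 and 7, a selection made after the values were seen, are given too.

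Levels in the stellate-like subcluster 1 are given as a description for Ecm1, a gene of the selection, and for 3 genes that were called in all stellate and fibroblast nuclei. Ecm1 had 2534 CPM in its ND nuclei and 1415 CPM in those of STZ-HFHC 2. Agtr1a had 911 and 2109 CPM, and Il34 had 187 and 609 CPM. Gpc6 had 771 and 3687 CPM there. These values rest on 36 and 32 nuclei of 2 mice and were not tested.

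**Figure D3:**
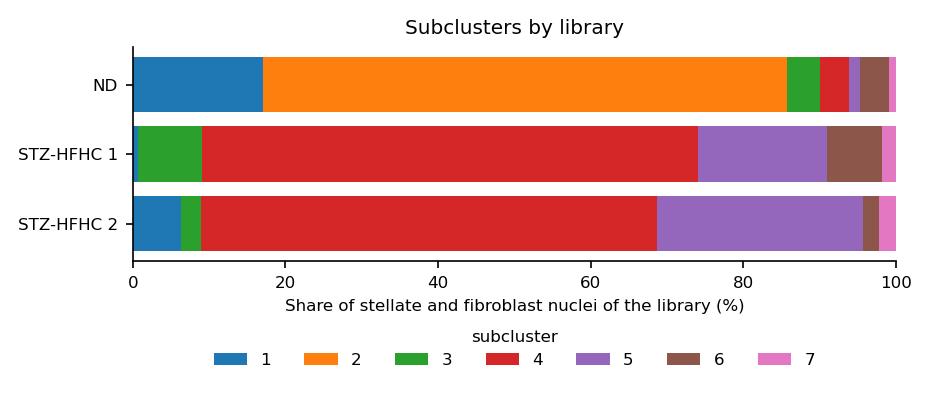
Share of the stellate and fibroblast nuclei of ND, STZ-HFHC 1 and STZ-HFHC 2 in each of 7 subclusters, in percent of the library's stellate and fibroblast nuclei. Subclusters 1 and 2 held most ND nuclei, and subclusters 4 and 5 most nuclei of both STZ-HFHC libraries.

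The comparison of STZ-HFHC with ND called genes in both directions, with the proteoglycan gene Gpc6, the angiotensin receptor gene Agtr1a and the cytokine gene Il34 among the higher and Egfem1 and Pdgfra among the lower. Of 8463 genes tested by edgeR's quasi-likelihood test on the summed counts, 261 were higher in STZ-HFHC (3.08%) and 425 were lower (5.02%), or 8.11% in either direction, at a Benjamini-Hochberg adjusted p under 0.05. A log2 ratio of at least 1 in both STZ-HFHC libraries was reached upwards by 554 genes (6.55%) and downwards by 537 (6.35%). Both STZ-HFHC libraries were above ND for 43.7% of the genes tested and below ND for 37.5%. Of the 425 lower genes, 396 had a higher mean level in hepatocyte nuclei than in the stellate and fibroblast nuclei, as had 34 of the 261 higher genes and 4572 of all 8463 tested (54.0%). DESeq2 called 47 genes higher (0.555%) and 86 lower (1.02%), all among those called by edgeR. With the nuclei chosen without Dcn, Col3a1 and Lum (106, 134 and 288 nuclei), edgeR called 0 genes, with 878 at an unadjusted p under 0.05. The spread came from 2 STZ-HFHC mice with 1 residual degree of freedom, the lone ND mouse was assumed to vary like them, and sums cannot tell a change in each nucleus from a change in the mix of nuclei.

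A set of 289 genes whose mean level in these nuclei was at least 4 times that in both endothelial and hepatocyte nuclei was chosen after the data had been seen. It served as another base for scaling and its own changes are not read here, since the mean included 2 STZ-HFHC libraries and a gene could enter through them alone (12 of the genes had fewer than 10 UMIs in ND). Scaling the libraries to this set in place of all genes moved the median log2 change of all genes, which was 0.00, by −0.58 on the log2 scale and changed the split to 112 higher (1.32%) and 1785 lower (21.1%), with 106 of the 261 higher and all 425 lower genes called again. Below, log2 changes are on the scaling to all genes, and values on the scaling to the 289 genes are named as such. Of 55 genes called and followed through the other settings, 41 were called again on that scaling. Scaling moved log2 changes down by about 0.58 or less, so the genes called lower could only move further down. The followed genes called higher had changes above 0.58, so none of the 55 could turn its direction there.

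Rbfox1 and the non-coding Gm19619 had the smallest p-values among the genes called higher, followed by Gpc6, Cyp2b9, Epha3, Grip1 and Pcdh7. Gm19619 had 9.51 CPM in ND and 185 and 243 CPM in STZ-HFHC (edgeR adjusted p = 0.000334), and Rbfox1, Cyp2b9 and Grip1 are described further on. Gpc6 (glypican 6, chr14:116925315-117976544, plus strand, mm10), a cell-surface proteoglycan that binds growth factors, had 553 CPM in ND and 2323 and 2636 CPM in STZ-HFHC. Both STZ-HFHC libraries lay far above ND and close to each other. The log2 change was 2.11 ± 0.23 (SE, 1 against 2 mice), with an edgeR adjusted p of 0.000542, and 1.52 when scaled to the 289 genes. In endothelial nuclei Gpc6 had 20.4, 49.0 and 58.9 CPM.

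Epha3, a receptor for ephrin-A ligands that steers cell contact and migration, had 91.3 CPM in ND and 450 and 466 CPM in STZ-HFHC. Its log2 change was 2.27 ± 0.25 (edgeR adjusted p = 0.000597). Pcdh7, a protocadherin of cell adhesion, had 276 CPM in ND and 1092 and 1053 CPM in STZ-HFHC (edgeR adjusted p = 0.000895). Plxdc2, a transmembrane protein with a plexin domain, had 85.6, 411 and 364 CPM, and Cd200r1, an inhibitory receptor for CD200, had 38.0, 314 and 227 CPM. These genes were named from those called, so their distance from ND is no further result. Both STZ-HFHC libraries were above ND for 43.7% of all genes tested.

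Il34 (chr8:110741829-110805924, minus strand), which encodes a ligand of the macrophage receptor CSF1R, had 129 CPM in ND and 490 and 496 CPM in STZ-HFHC. The STZ-HFHC libraries were nearly equal and both were above ND. The log2 change was 1.87 ± 0.24 (edgeR adjusted p = 0.00136). Hepatocyte nuclei held 1.17, 6.52 and 3.95 CPM of Il34, and the difference of the change from that in hepatocyte nuclei was 0.06, which did not pass the test.

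Agtr1a (chr13:30336441-30382867, plus strand), the angiotensin II receptor, rose in stellate and fibroblast nuclei and was lower with STZ-HFHC in the other sets. It had 538 CPM in ND and 1335 and 1371 CPM in STZ-HFHC. Both STZ-HFHC libraries exceeded ND, with a log2 change of 1.27 ± 0.21 (edgeR adjusted p = 0.00565) and of 0.69 when scaled to the 289 genes. In endothelial nuclei Agtr1a had 112, 86.6 and 61.7 CPM, and in hepatocyte nuclei 166, 125 and 79.3 CPM. The lower level passed the test in endothelial nuclei (edgeR adjusted p = 0.0151) but not in hepatocyte nuclei (0.200). The change in stellate and fibroblast nuclei differed from that in endothelial nuclei by 2.06 and from that in hepatocyte nuclei by 2.30 on the log2 scale (edgeR adjusted p = 1.37e-17 and 1.88e-24). Cacna1c, the pore subunit of an L-type calcium channel, had 38.0, 248 and 209 CPM in stellate and fibroblast nuclei, while endothelial nuclei held 7.46, 8.41 and 9.42 CPM. Its change exceeded that in endothelial nuclei by 2.44 and that in hepatocyte nuclei by 2.60 (edgeR adjusted p = 0.00458 and 2.11e-07).

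**Figure D4:**
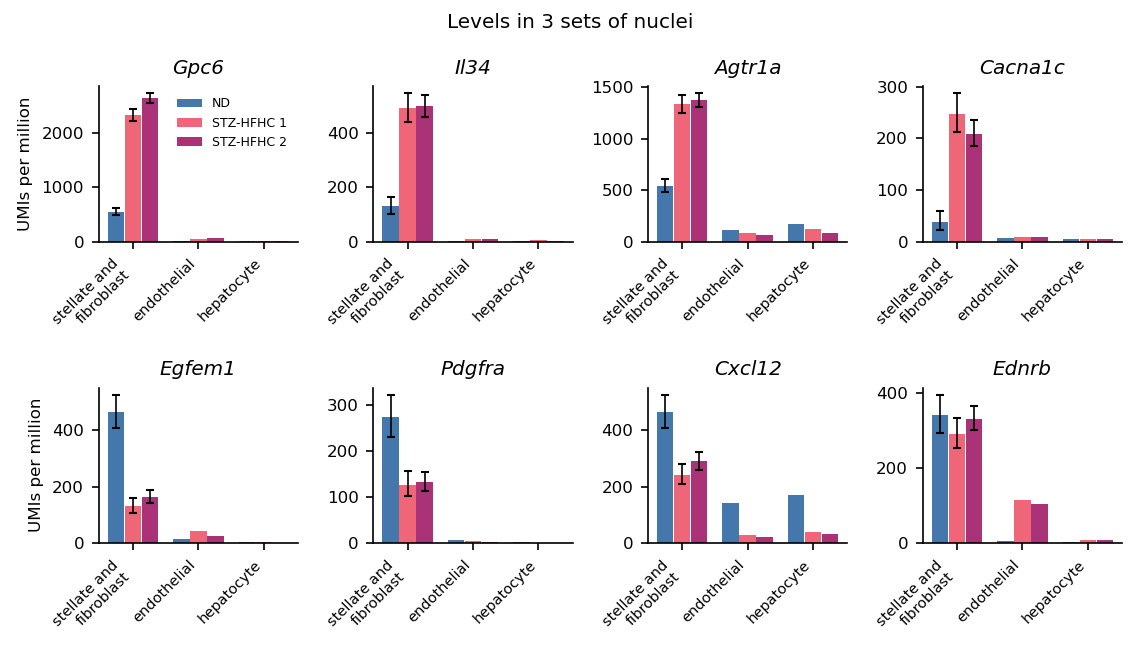
Levels of 8 genes in CPM for ND, STZ-HFHC 1 and STZ-HFHC 2, in stellate and fibroblast, endothelial and hepatocyte nuclei. Whiskers on the stellate and fibroblast bars are exact Poisson 95% intervals. Gpc6, Il34, Agtr1a and Cacna1c were higher in both STZ-HFHC libraries than in ND, Egfem1, Pdgfra and Cxcl12 were lower, and Ednrb had 340, 291 and 331 CPM in these nuclei, a change that did not pass the test but was called lower when scaled to the 289 genes.

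Wwtr1, Tead1 and Ccn1 were called higher, while Yap1, which encodes the co-activator YAP, had 184, 237 and 236 CPM and did not pass the test (edgeR adjusted p = 0.48). The promoters of a pair of other risers are shown since they hold the letters that TEAD factors recognise. Wwtr1, which encodes the co-activator TAZ, had 72.3 CPM in ND and 253 and 184 CPM in STZ-HFHC (log2 change 1.53 ± 0.31, edgeR adjusted p = 0.0135). Tead1, its DNA-binding partner, had 270, 599 and 492 CPM (0.95 ± 0.23, edgeR adjusted p = 0.0302). Both genes were above ND in each STZ-HFHC library. Tead1 did not pass the test when scaled to the 289 genes (0.37, edgeR adjusted p = 0.258), nor when thinned (0.28, adjusted p = 0.691) or by DESeq2 (adjusted p = 0.208). DESeq2 gave Wwtr1 an adjusted p of 0.0910. Wwtr1 and Tead1 were also above ND in endothelial nuclei, where Wwtr1 had 142, 374 and 285 CPM. Ccn1, a secreted matricellular protein and known TEAD target, had 7.61, 74.7 and 34.7 CPM (edgeR adjusted p = 0.0480). Ccn1 did not pass the test by DESeq2 (adjusted p = 0.194), with DESeq2's size factors (0.0533), with at least 100 UMIs (0.0819), with at least 4 marker genes (0.268), when thinned (0.44) or without the highest Scrublet scores (0.0566). The letters GGAATG were searched on both strands (CATTCC on the other) in the 250 bases before each start in RefSeq promoters of GRCm38.p6. They were found in 4153 of 32851 promoters (12.6%), in 35 of 287 promoters (12.2%) of the genes called higher, of which 203 of 261 were matched, and in 48 of 444 promoters (10.8%) of genes called lower, of which 322 of 425 were matched. The shares in both sets of genes were close to that of all promoters. Capitals mark the letters found upstream of Epha3 (chr16:63864176-63864425, minus strand) and Prrx1 (chr1:163313651-163313900, minus strand), written 5′ to 3′:
Epha3: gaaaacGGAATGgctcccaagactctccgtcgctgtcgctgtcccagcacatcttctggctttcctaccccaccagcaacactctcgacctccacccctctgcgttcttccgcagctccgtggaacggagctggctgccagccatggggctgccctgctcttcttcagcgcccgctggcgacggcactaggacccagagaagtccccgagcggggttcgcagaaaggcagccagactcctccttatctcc
Prrx1: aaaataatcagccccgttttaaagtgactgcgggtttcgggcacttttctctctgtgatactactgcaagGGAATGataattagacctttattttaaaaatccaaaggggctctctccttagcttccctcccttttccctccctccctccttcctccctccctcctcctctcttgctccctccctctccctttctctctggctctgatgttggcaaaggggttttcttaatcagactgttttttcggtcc

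Other genes of the Wnt, Hedgehog, Notch and Hippo list rose in part. Of its 40 genes 22 were tested, and 5 rose and 0 fell, beside 3.08% and 5.02% of all genes. The median log2 change was 0.35, or −0.24 when scaled to the 289 genes. On that scaling 3 were higher and 1 lower, beside 1.32% and 21.1% of all genes. Gli3, a transcription factor of the Hedgehog pathway, had 93.2 CPM in ND and 244 and 185 CPM in STZ-HFHC (edgeR adjusted p = 0.0351, or 0.180 when scaled to the 289 genes). Notch3, the Notch receptor of pericytes and smooth muscle, had 3.80 CPM in ND from 2 UMIs (exact Poisson interval 0.461 to 13.7) and 41.5 and 29.1 CPM in STZ-HFHC (edgeR adjusted p = 0.0325). Of 9 smooth muscle markers, among them Notch3, 4 were tested and Notch3 was called higher.

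Transcription factors of stellate cells rose in small part. Of 51 listed genes 40 were tested, and 5 rose and 0 fell, beside 3.08% and 5.02% of all genes. The median log2 change was 0.39, or −0.19 when scaled to the 289 genes. On that scaling 3 were higher and 3 lower, beside 1.32% and 21.1% of all genes. Zeb2, a zinc finger repressor of transcription, had 1735 CPM in ND and 3416 and 3089 CPM in STZ-HFHC (0.85 ± 0.21, edgeR adjusted p = 0.0314), and 0.26 when scaled to the 289 genes (adjusted p = 0.350). Prrx1, a homeobox factor of mesenchymal cells, had 1.90 CPM in ND from 1 UMI (interval 0.0482 to 10.6) and 37.4 and 37.1 CPM in STZ-HFHC (edgeR adjusted p = 0.0123). The immediate early genes Fos and Fosb had 0 UMIs in ND, which allows up to 5.71 CPM at 3 counts. Fos had 55.4 and 22.6 CPM in STZ-HFHC, at least 9.70-fold and 3.96-fold higher than that limit, and endothelial nuclei held 1.49, 42.5 and 17.0 CPM of it. Klf6, another early response factor, had 17.1, 58.1 and 60.5 CPM (edgeR adjusted p = 0.0412, or 0.0973 when scaled to the 289 genes).

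Over 6 lists of matrix genes, 82 genes were tested, 15 were called higher (18.3%, beside 3.08% of all genes) and 5 lower (6.10%, beside 5.02%). When scaled to the 289 genes 11 were higher (13.4%, beside 1.32%) and 12 lower (14.6%, beside 21.1%). Dcn, Col3a1 and Lum, which helped to choose the nuclei, are matrix genes too. A UMI of Col3a1 was found in 22.3%, 50.5% and 38.6% of the nuclei. With nuclei chosen without these markers edgeR called 0 genes. The log2 changes then moved both ways, with Col5a2 at 0.83 in place of 1.80 and Timp3 at 2.58 in place of 2.44. The part of the selection in the counts of matrix genes was not tested. Of 11 fibrillar collagen genes 7 were tested, 2 rose and 0 fell, with a median log2 change of 1.49, or 0.91 with 2 higher and 0 lower when scaled to the 289 genes. Their summed level, Col3a1 included, was 504 CPM in ND and 2186 and 1087 CPM in STZ-HFHC, and 500.4, 1114 and 1020 CPM without subclusters 3, 6 and 7. Col3a1, which had chosen nuclei, made up 101, 711 and 282 CPM of the former sums and 105, 329 and 265 CPM of the latter. The sums are therefore a description and are not read as a rise. Col5a2, a chain of type V collagen, had 81.8, 399 and 203 CPM (1.80 ± 0.41, edgeR adjusted p = 0.0237). It did not pass with at least 100 UMIs (edgeR adjusted p = 0.0562) or with at least 4 marker genes (0.101). Without subclusters 3, 6 and 7 it had 82.7, 237 and 188 CPM. Col5a2 rose in endothelial nuclei too, with 8.95, 64.3 and 49.9 CPM (2.53, edgeR adjusted p = 4.28e-09), and the difference of the changes, −0.71, did not pass the test. Col27a1 had 30.4, 92.7 and 86.4 CPM (1.49 ± 0.36, edgeR adjusted p = 0.0304, or 0.103 when scaled to the 289 genes), and 31.0, 81.5 and 82.1 CPM without these subclusters.

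The genes of type I collagen, the main collagen of scar, did not pass the test with libraries scaled to all genes. Col1a1 had 7.61 CPM in ND and 255 and 46.8 CPM in STZ-HFHC (edgeR adjusted p = 0.0648). Col1a2 had 51.4, 368 and 123 CPM (edgeR adjusted p = 0.0582). Both were above ND in each STZ-HFHC library, which differed widely from each other. When scaled to the 289 genes Col1a1 passed the test (adjusted p = 0.0286) and Col1a2 did not (adjusted p = 0.0502), and with no TMM both did (adjusted p = 0.0191 and 0.0175). With nuclei chosen without Dcn, Col3a1 and Lum their log2 changes were 3.81 and 0.63, in place of 4.16 and 2.17. Without subclusters 3, 6 and 7 Col1a1 had 4.14, 35.4 and 40.2 CPM and Col1a2 had 43.4, 95.6 and 99.5 CPM. Subcluster 6 was left out with the Col1a1 level of its STZ-HFHC 1 nuclei known, so the closeness of the STZ-HFHC libraries is not read from these values and no test of them is given. Subcluster 6 of STZ-HFHC 1 held mesothelial as well as fibroblast markers, and their part in the higher level of that library was not tested beyond this.

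Of the 24 other collagen genes 13 were tested, 1 rose and 2 fell, with a median log2 change of 0.63, or 0.05 with 0 higher and 2 lower when scaled to the 289 genes. Col14a1, a collagen that binds fibrils, had 363, 690 and 688 CPM (0.87 ± 0.21, edgeR adjusted p = 0.0299), and 0.28 when scaled to the 289 genes (adjusted p = 0.351). Col18a1 and Col25a1 fell. Col18a1 had 295 CPM in ND and 98.2 and 67.8 CPM in STZ-HFHC, and it had more in hepatocyte nuclei, with 535, 258 and 277 CPM. Col25a1 had 64.7, 16.6 and 21.0 CPM, beside 7.58, 1.66 and 1.15 CPM in hepatocyte nuclei.

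Of 35 matrix glycoprotein genes 24 were tested, 4 rose (Tnc, Postn, Fbln5 and Lamc1) and Fn1 fell, with a median log2 change of 0.28, or −0.31 with 2 higher and 3 lower when scaled to the 289 genes. Tnc, the injury-induced protein tenascin C, had 1.90 CPM in ND from 1 UMI (interval 0.0482 to 10.6) and 76.1 and 34.7 CPM in STZ-HFHC (edgeR adjusted p = 0.0179). Postn, periostin, had 47.5, 101 and 141 CPM (1.31 ± 0.35, edgeR adjusted p = 0.0434). It did not pass by DESeq2 (adjusted p = 0.391), nor by edgeR with at least 100 UMIs (0.0683) or at least 4 marker genes (0.117). When thinned its log2 change was 0.66 (edgeR adjusted p = 0.53). Fbln5, which helps to assemble elastic fibres, had 36.1, 105 and 89.6 CPM. All 3 were above ND in each STZ-HFHC library, and when scaled to the 289 genes Postn, Fbln5 and Lamc1 no longer passed the test (adjusted p = 0.157, 0.141 and 0.236). Fn1, fibronectin, is also made by hepatocytes, and had 681, 322 and 299 CPM here and 848, 355 and 283 CPM in hepatocyte nuclei. Among 20 proteoglycan genes 9 were tested, with a median log2 change of 0.16, or −0.42 with 1 higher and 3 lower when scaled to the 289 genes, and Gpc6 rose. Prelp, a proteoglycan that links collagen to basement membrane, fell, with 171 CPM in ND and 67.8 and 87.2 CPM in STZ-HFHC (−1.18 ± 0.27, edgeR adjusted p = 0.0226). It did not pass by DESeq2 (adjusted p = 0.354), nor by edgeR with at least 4 marker genes (0.0618) or when thinned (0.0633). Prelp was a leading gene of subcluster 1, and endothelial nuclei held 3.48, 1.98 and 1.88 CPM of it.

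Some enzymes that cut and modify the matrix, and their inhibitors, rose. Of 30 matrix protease and inhibitor genes 17 were tested, 4 rose and 0 fell, with a median log2 change of 0.69, or 0.11 with 4 higher and 3 lower when scaled to the 289 genes. Timp3, an inhibitor of metalloproteinases that stays bound to the matrix, had 15.2, 96.9 and 77.5 CPM (2.44 ± 0.44, edgeR adjusted p = 0.00935). It did not pass when thinned (log2 change 1.63, edgeR adjusted p = 0.198) or by DESeq2 (adjusted p = 0.0816). Its change was larger than in endothelial nuclei by 1.77 and than in hepatocyte nuclei by 3.00 on the log2 scale (edgeR adjusted p = 0.0373 and 1.56e-06). Adamts12, a secreted protease, had 194, 606 and 456 CPM, Adamts9 had 43.7, 176 and 156 CPM, and Adamtsl1, a related protein without the protease domain, had 9.51, 81.6 and 52.5 CPM. All 4 genes were above ND in both STZ-HFHC libraries. For the 3 besides Timp3 the difference of the change from that in either other set did not pass the test. Adamts9 and Adamtsl1 rose in endothelial nuclei too, where they had 15.4, 97.5 and 76.3 CPM and 7.46, 90.0 and 49.5 CPM (differences of −0.43 and −0.26 on the log2 scale, edgeR adjusted p = 0.891 and 0.981). Timp1, measured by the study in whole liver, had 0, 13 and 2 UMIs and was not tested. Of 21 collagen-modifying genes 12 were tested and 3 rose, with a median log2 change of 0.71, or 0.13 with 2 higher and 1 lower when scaled to the 289 genes. Plod2, a lysyl hydroxylase whose product allows stable crosslinks, had 24.7, 85.8 and 90.4 CPM (1.77 ± 0.38, edgeR adjusted p = 0.0179). The prolyl hydroxylase genes P4ha1 (131, 255 and 354 CPM) and P3h2 (55.2, 202 and 203 CPM) rose too, though P4ha1 did not pass the test when scaled to the 289 genes (adjusted p = 0.144). Bmp1, which trims procollagen, fell, with 171, 54.0 and 49.2 CPM, and had 265, 86.6 and 108 CPM in hepatocyte nuclei.

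**Figure D5:**
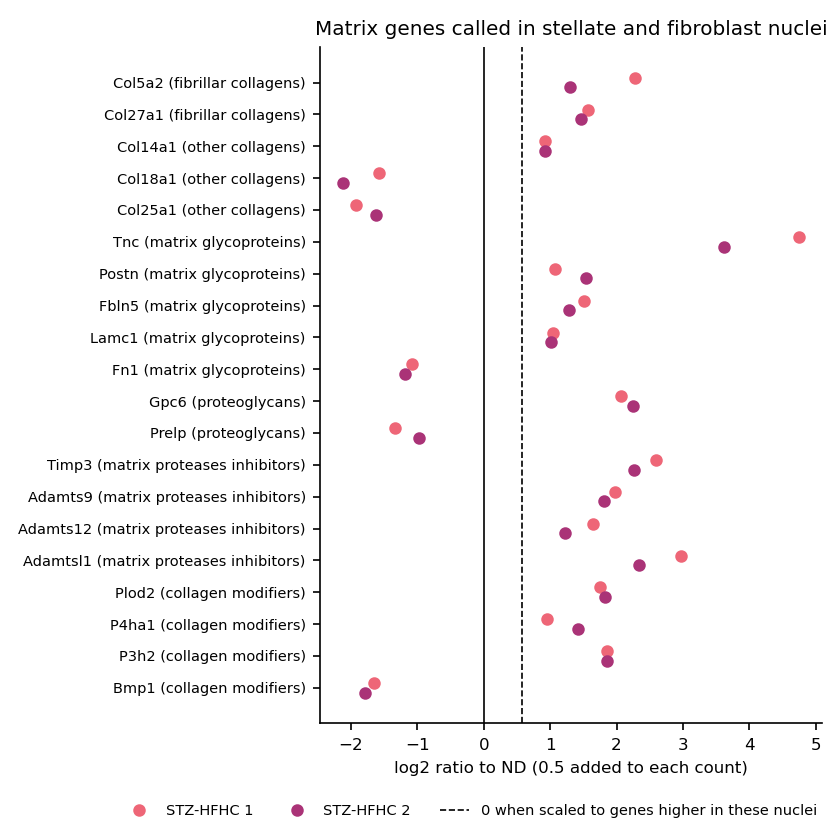
Log2 ratio to ND of the matrix genes called by the test in stellate and fibroblast nuclei, for STZ-HFHC 1 and STZ-HFHC 2, grouped by list (in parentheses). The dashed line is the log2 change that becomes 0 when scaled to the 289 genes (0.58). Each gene had its STZ-HFHC libraries on the same side of 0, with Tnc furthest above, from 1 UMI in ND.

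Of 38 genes of receptors and growth factors 28 were tested. Of these 4 rose (Igf1r, Igfbp3, Ddr2 and Agtr1a) and 3 fell (Pdgfra, Adra1a and Adra1b), beside 3.08% and 5.02% of all genes. The median log2 change was 0.33, or −0.25 when scaled to the 289 genes. On that scaling 1 gene (Agtr1a) was higher and 10 were lower, beside 1.32% and 21.1% of all genes. Igf1r, Igfbp3 and Ddr2 no longer passed the test there (edgeR adjusted p = 0.0831, 0.108 and 0.0549). Adra1a and Adra1b, receptors for noradrenaline, had 64.7, 11.1 and 18.6 CPM and 204, 116 and 108 CPM here, and more in hepatocyte nuclei, with 127, 81.0 and 74.1 CPM and 339, 288 and 306 CPM. Pdgfra (chr5:75152292-75198215, plus strand), a receptor for platelet-derived growth factor, had 274 CPM in ND and 127 and 132 CPM in STZ-HFHC. Both STZ-HFHC libraries were below ND, with a log2 change of −1.13 ± 0.22 (edgeR adjusted p = 0.0115), while DESeq2 gave an adjusted p of 0.225. Ddr2, a receptor for fibrillar collagen, had 76.1, 199 and 215 CPM (1.39 ± 0.27, edgeR adjusted p = 0.0110). Igf1r, the receptor for insulin-like growth factor 1, had 266, 657 and 577 CPM, and Igfbp3, which binds that factor, had 51.4, 134 and 134 CPM. Hgf, the hepatocyte growth factor of stellate cells, had 1147, 1266 and 1750 CPM, a log2 change of 0.34 that did not pass the test and was −0.24 when scaled to the 289 genes. Egfem1 (chr3:29082023-29691209, plus strand), a little-studied gene with EGF-like repeats, fell from 462 CPM in ND to 131 and 162 CPM (−1.70 ± 0.22, edgeR adjusted p = 0.00142), while endothelial nuclei had 12.9, 42.5 and 25.4 CPM.

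Of 36 TGF-β and BMP genes 31 were tested, and 3 rose and 0 fell, beside 3.08% and 5.02% of all genes. The median log2 change was 0.30, or −0.28 when scaled to the 289 genes. On that scaling 1 was higher and 1 lower, beside 1.32% and 21.1% of all genes. Tgfbr1, the type I receptor, had 85.6, 275 and 197 CPM (1.39 ± 0.30, edgeR adjusted p = 0.0190, or 0.0656 when scaled to the 289 genes), and endothelial nuclei had 109, 198 and 164 CPM. Ltbp1, which anchors latent TGF-β in the matrix, had 53.3, 210 and 141 CPM (1.65 ± 0.35, edgeR adjusted p = 0.0178). The ligand gene Tgfb1 had overlapping levels of 30.4, 33.2 and 29.1 CPM.

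Of 36 chemokine and cytokine genes 16 were tested. Of these 2 rose (Il34 and Il1r1) and Cxcl12 fell, beside 3.08% higher and 5.02% lower of all genes. The median log2 change was 0.64, or 0.05 when scaled to the 289 genes. On that scaling 1 was higher and 3 lower, beside 1.32% and 21.1% of all genes. Cxcl12, a chemokine of mesenchymal niches, had 464 CPM in ND and 244 and 291 CPM in STZ-HFHC (−0.85 ± 0.21, edgeR adjusted p = 0.0330). It did not pass by DESeq2 (adjusted p = 0.359) or with at least 4 marker genes (edgeR adjusted p = 0.0601). It was lower still in the other nuclei of STZ-HFHC, with 143, 27.2 and 21.7 CPM in endothelial nuclei and 170, 38.3 and 33.0 CPM in hepatocyte nuclei. Ccl2, which attracts monocytes, had 1.90 CPM in ND from 1 UMI and 30.4 and 11.3 CPM in STZ-HFHC, and did not pass the test (edgeR adjusted p = 0.145).

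Retinoid genes gave no common direction. Of 26 genes 12 were tested, 0 rose and Rbp4 fell, beside 3.08% higher and 5.02% lower of all genes. Their median log2 change was 0.00, or −0.58 when scaled to the 289 genes. On that scaling 0 were higher and 3 lower, beside 1.32% and 21.1% of all genes. Rbp4, the retinol carrier of plasma, is a hepatocyte product and had 504, 162 and 176 CPM here and 754, 371 and 379 CPM in hepatocyte nuclei. Aldh1a1, which oxidises retinal, had 588, 884 and 774 CPM, a log2 change of 0.44 that did not pass the test and was −0.15 when scaled to the 289 genes. Of 20 contractile genes 11 were tested, 0 were called by edgeR or DESeq2 and 3 were at an unadjusted p under 0.05, with a median log2 change of 0.46, or −0.12 with 0 higher and 2 lower when scaled to the 289 genes. The stellate markers that were tested, 10 of 15, gave a median log2 change of −0.16 and 1 riser, the metalloreductase gene Steap4 at 207, 393 and 475 CPM, but a median of −0.74 with 0 higher and 4 lower when scaled to the 289 genes, where Steap4 had an adjusted p of 0.207.

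Stellate cells near the portal tract and near the central vein differ in the genes they use. Of 5 markers of stellate cells near the portal tract, all tested, Igfbp3 and Il34 rose. Their median log2 change was 1.33, or 0.74 with Il34 alone higher when scaled to the 289 genes. Among all genes 3.08% rose and 5.02% fell, or 1.32% and 21.1% when scaled. Of 5 markers of stellate cells near the central vein, 4 were tested and 0 were called by edgeR or DESeq2, with 0 at an unadjusted p under 0.05 and a median of −0.21, or −0.79 when scaled to the 289 genes. The difference between both lists was not tested. The summed levels of the portal list were 215, 668 and 714 CPM, and those of the central list were 557, 649 and 750 CPM.

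Of 20 stress and senescence genes 12 were tested and 3 rose, with a median log2 change of 0.53. When scaled to the 289 genes 3 were higher and 2 lower, with a median of −0.05. Of 34 lipid genes 27 were tested, 1 rose and 4 fell (0.19), and 1 was higher and 7 lower when scaled (−0.39). Among all genes 3.08% rose and 5.02% fell, or 1.32% and 21.1% when scaled. Fkbp5 and Zbtb16, both induced by glucocorticoids, had 105, 447 and 324 CPM and 213, 898 and 754 CPM (edgeR adjusted p = 0.00483 and 0.00136). In hepatocyte nuclei they had 87.5, 350 and 262 CPM and 378, 1160 and 1029 CPM. Cd36, a fatty acid receptor, had 19.0, 232 and 125 CPM (3.14 ± 0.52, edgeR adjusted p = 0.00565), beside 65.1, 583 and 416 CPM in endothelial nuclei. Of the lower lipid genes, Ppara, a nuclear receptor of fatty acid breakdown, had 753, 443 and 299 CPM in stellate and fibroblast nuclei and 1609, 1817 and 1111 CPM in hepatocyte nuclei. Of 15 proliferation genes 2 reached the count minimum of 30 UMIs, 0 were called by edgeR or DESeq2 and 1 had an unadjusted p under 0.05.

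Several of the largest changes were in genes that hepatocyte nuclei held at higher levels. Cyp2b9, a drug-metabolising enzyme, had 0 UMIs in ND and 95.5 and 92.8 CPM in STZ-HFHC, at least 16.7-fold and 16.3-fold above the limit of ND, beside 0.583, 507 and 334 CPM in hepatocyte nuclei. Rbfox1, a splicing factor, had 13.3, 477 and 433 CPM (5.02 ± 0.35, edgeR adjusted p = 3.7e-05). In contrast to the others it was more abundant here than in hepatocyte nuclei of STZ-HFHC, which had 122 and 120 CPM. Bhmt, an enzyme of methionine synthesis, fell from 3087 CPM in ND to 73.3 and 107 CPM, and in hepatocyte nuclei it had 5206, 150 and 258 CPM. Alb, albumin, had 3106, 1079 and 1014 CPM here. Of the 10 hepatocyte markers 7 fell and 0 rose, beside 5.02% and 3.08% of all genes, with a median log2 change of −1.64.

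Changes were set against those in the other nuclei of the same libraries by an interaction in edgeR with the mouse as a block. These fits, too, left 1 residual degree of freedom and borrowed their spread from all genes. With 1 ND mouse, even very small interaction p-values do not measure how the difference varies between mice. Against endothelial nuclei, 81 of 12396 genes changed more upwards (0.653%) and 67 more downwards (0.54%), and against hepatocyte nuclei 151 (0.994%) and 109 (0.717%) of 15192. Of 12321 genes tested in both, 51 (0.414%) were further up and 20 (0.162%) further down against both sets of nuclei. Of the 261 genes that rose in stellate and fibroblast nuclei 17 were further up against both, and of the 425 that fell 2 were further down against both. By sign alone, both other sets of nuclei moved in the same direction for 215 of the 261 and for 412 of the 425. Most of the genes called were therefore not shown to change in these nuclei in particular. Mgll, a lipase that frees fatty acids from monoglycerides, had 274 CPM in ND and 96.9 and 116 CPM in STZ-HFHC, while endothelial nuclei had 422, 495 and 433 CPM. It fell in stellate and fibroblast nuclei by more than in either other set (edgeR adjusted p = 2.73e-06 and 0.0105). Pcdh15, a cadherin, had 173, 47.0 and 39.5 CPM and was the other gene to do so (edgeR adjusted p = 0.00948 and 0.0486).

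Ednrb, the endothelin receptor B, was named after its values were seen. It had 340, 291 and 331 CPM in stellate and fibroblast nuclei, a log2 change of −0.18 (edgeR adjusted p = 0.672) that became −0.77 and passed the test when scaled to the 289 genes (adjusted p = 0.0231). Endothelial nuclei had 5.47, 115 and 103 CPM. The difference of its change from that in endothelial nuclei was −4.30 on the log2 scale (edgeR adjusted p = 1.65e-28).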

How the data were processed

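Nuclei of frozen liver were measured by 10x sNuc-Seq in 3 libraries. The authors deposited, for each library, a matrix of whole UMI counts per gene and barcode, made per the submitters' processing notes with Cell Ranger 7.0.1 on mm10. The files held 30989 barcodes, and 28336 passed the study's limits of 200 to 5000 genes and at most 5% mitochondrial UMIs, with 42715797, 44350401 and 55632923 UMIs in ND, STZ-HFHC 1 and STZ-HFHC 2. The study gives 30989 as its number of cells after these limits, which is the number of barcodes in the files before they were applied here. The unused columns of per-sample values numbered 0.

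The members, gene lists and tests were chosen with earlier results of these data known. Endothelial and hepatocyte nuclei were chosen by markers in a like way, and could hold at most 1 of the 10 marker genes of the selection. For hepatocyte nuclei this limit of 1 gene also took in the genes used to leave nuclei out. Counts were summed per library over the selected nuclei, and genes with at least 30 UMIs over the 3 libraries were tested by edgeR 4.0.16 (quasi-likelihood test, TMM, R 4.3.3) with Benjamini-Hochberg adjustment over all 8463 genes. The 14 genes of the selection that reached this minimum were not tested, and DESeq2 1.42.0 served as an alternative. Differences of changes between sets of nuclei were interactions in edgeR with the mouse as a block. Nuclei were clustered with scanpy 1.11.5 (Leiden, resolution 0.5), and other steps used Python 3.11.15, numpy 2.4.6, scipy 1.17.1, pandas 2.3.3 and matplotlib 3.10.9. The p-values rest on the spread between the 2 STZ-HFHC libraries. For each gene that spread was pulled towards that of all genes, which counted for 9.57 degrees of freedom beside 1 of its own. Scrublet called 1, 0 and 0 nuclei and so did not work. The 8% of nuclei with the highest scores in each library were left out as an alternative.

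Named genes were the genes of the selection, the 12 genes of each direction with the smallest p and the 5 with the largest change, the called or most abundant members of each list, the 8 genes of each direction with the smallest interaction p, 5 leading genes per subcluster, and the genes that the study followed by qRT-PCR. Symbols carried by more than 1 identifier (Ccl19, Ccl21a and Ddit3) are uncertain. A few members of the lists are not reported here by name. Gene coordinates came from the GENCODE annotation of mm10 and promoters from RefSeq on GRCm38.p6.

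On simulated data for the comparison of STZ-HFHC with ND (8518 genes), edgeR recovered 11.4% of genes changed by a log2 of 1 and 73.6% of those changed by 2, with 3 false calls, and DESeq2 recovered 0.0% and 41.4%. For the interaction with endothelial nuclei (12424 genes) 18.0% and 76.0% were recovered, and for that with hepatocyte nuclei (15238 genes) 20.0% and 80.0%. For hepatocyte nuclei the counts were simulated with a smaller spread than the fit found, so that recovery may be overstated.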

Additional observations from a re-analysis of the deposited data

Results flagged for a closer look

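For 71 genes the change between STZ-HFHC and ND in stellate and fibroblast nuclei differed in 1 direction both from that in endothelial and from that in hepatocyte nuclei of the same libraries, by edgeR's interaction test. The 16 given here are those with the smallest p among the genes also called in stellate and fibroblast nuclei, at most 8 in each direction, and others already named above. Differences are on the log2 scale, the one from endothelial nuclei first, and adjusted p-values follow the same order. With 1 ND mouse these p-values do not measure how the differences vary between mice, and no cause was tested.

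Some genes were further up. Agtr1a, the angiotensin receptor, differed by 2.06 and 2.30 (edgeR adjusted p = 1.37e-17 and 1.88e-24). The calcium channel gene Cacna1c differed by 2.44 and 2.60 (edgeR adjusted p = 0.00458 and 2.11e-07). Arhgap42, a GTPase-activating protein that limits contraction in smooth muscle, had 1069, 1901 and 2006 CPM and differed by 1.66 and 1.19 (edgeR adjusted p = 4.43e-17 and 9.48e-07). Kalrn, a guanine nucleotide exchange factor, had 491, 1066 and 802 CPM and differed by 1.11 and 1.46 (edgeR adjusted p = 1.72e-05 and 7.03e-09). Efna5, an ephrin-A ligand named after its values were seen, had 679, 1571 and 1145 CPM and differed by 1.04 and 0.75 (edgeR adjusted p = 6.16e-05 and 0.0183). Timp3 differed by 1.77 and 3.00 (edgeR adjusted p = 0.0373 and 1.56e-06).

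Olfr1033, annotated as an olfactory receptor, had 162, 466 and 510 CPM in stellate and fibroblast nuclei and differed by 1.88 and 2.07 (edgeR adjusted p = 1.91e-08 and 4.36e-12). Ranbp3l had 3.80 CPM in ND from 2 UMIs (exact Poisson interval 0.461 to 13.7) and 23.5 and 46.8 CPM in STZ-HFHC, and differed by 5.32 and 4.62 (edgeR adjusted p = 1.24e-05 and 2.57e-05).

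Other genes stood out because the other nuclei moved differently. Cxcl12 and the clock factor gene Npas2 fell less in stellate and fibroblast nuclei, with Cxcl12 differing by 1.88 and 1.70 (edgeR adjusted p = 7.12e-11 and 2.07e-09) and Npas2 by 1.49 and 2.13 (edgeR adjusted p = 2.59e-05 and 1.86e-12). Aldh1a1 differed by 1.40 and 1.72 (edgeR adjusted p = 6.9e-10 and 1.17e-13) while its own change did not pass the test. Ednrb differed by −4.30 and −1.38 (edgeR adjusted p = 1.65e-28 and 0.00257).

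The non-coding Pvt1 (165, 372 and 332 CPM) and the repair gene Rad51b (72.3, 224 and 148 CPM) rose in stellate and fibroblast nuclei, but by less than in the others. Pvt1 differed by −1.13 and −1.23 (edgeR adjusted p = 0.00182 and 0.000834), and Rad51b by −1.29 and −1.80 (edgeR adjusted p = 0.0164 and 5.07e-05). Mgll differed by −1.34 and −0.98 (edgeR adjusted p = 2.73e-06 and 0.0105), and Pcdh15 by −2.96 and −1.58 (edgeR adjusted p = 0.00948 and 0.0486).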

How the results depend on the processing

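Selection, the test used and scaling moved the counts of called genes. Against 261 genes higher and 425 lower, edgeR called 0 and 0 with the nuclei chosen without Dcn, Col3a1 and Lum (878 genes at an unadjusted p under 0.05), 113 and 237 with at least 4 marker genes, and 94 and 170 with nuclei thinned to 1000 UMIs. DESeq2 called 47 and 86, and scaling to the 289 genes gave 112 and 1785. Without subclusters 3, 6 and 7 the counts were 501 and 695, with 254 of the 261 and 417 of the 425 shared. The hepatocyte-like subcluster 2, with 145 nuclei that made up 68.7% of those of ND and none of STZ-HFHC, was kept. This setting therefore does not test its part in the calls. Genes called higher numbered 165 with at least 100 UMIs and 552 with no filter on low counts. DESeq2's size factors, no TMM and leaving out the highest Scrublet scores kept both counts within 1.5 times, as did both filters on low counts for genes called lower. The ratio of the shares of nuclei was 1.56, became 2.09 with thinning and ranged from 1.25 to 1.86 with either STZ-HFHC replicate left out. Leaving out either replicate left no residual degree of freedom and so no test, and the genes with a log2 ratio of at least 1 then numbered 743 to 892 higher and 858 to 974 lower. Interactions with endothelial nuclei numbered 15 higher and 2 lower by DESeq2, and 104 lower with no TMM. Those with hepatocyte nuclei numbered 38 and 21 by DESeq2, and 97 and 306 with no TMM. The 7 subclusters became 3 at a resolution of 0.3 and 9 at 0.8. At 0.3 no subcluster had a stellate-like name. A hepatocyte-like subcluster then held 84.4% of the ND nuclei. Another, named by T, NK and B cell markers, held 92.8% and 97.4% of the STZ-HFHC nuclei. At 0.8 the stellate-like subcluster held 36, 2 and 32 nuclei. Of 55 followed genes that were called, 23 were called by DESeq2 too, 41 when scaled to the 289 genes and 33 with at least 4 marker genes. Called again were 29 when thinned, 44 with at least 100 UMIs, 55 without subclusters 3, 6 and 7, and 0 without Dcn, Col3a1 and Lum. None of the 55 turned its direction in these settings, but the scaling to the 289 genes could not turn any of them. Without Dcn, Col3a1 and Lum the median size of their log2 changes was 1.47 in place of 1.77, with Gpc6 at 1.86 in place of 2.11 and Col5a2 at 0.83 in place of 1.80. Of those not called, Aldh1a1 turned to −0.15 and Hgf to −0.24 when scaled to the 289 genes. Hgf also turned to −0.062 when thinned. Apart from fewer nuclei and genes in these settings, the cause was not tested. A comparison within stellate-like nuclei alone was not run, since STZ-HFHC 1 had 2 of them. No paired analysis was possible because the ND sample shares fewer than 2 replicate numbers with STZ-HFHC. The minimum of 30 UMIs was a chosen setting, and with 1 ND mouse a change of 1 on the log2 scale was mostly missed on simulated data.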

Other observations

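Of 13 genes that the study followed by qRT-PCR in mouse liver, 6 reached the count minimum in stellate and fibroblast nuclei. Ppara was the one called, in the downward direction, beside 5.02% of all genes called lower. Pparg, a lipid-storing factor of resting stellate cells, had 28.5, 58.1 and 54.1 CPM (edgeR adjusted p = 0.218), and Srebf1, the regulator of fatty acid synthesis, had 9.51, 40.1 and 27.4 CPM (edgeR adjusted p = 0.129). Both were higher in each STZ-HFHC library than in ND, and neither passed the test. Tnf had 0, 1 and 1 UMIs, Il6 had 0, 2 and 0, and Mmp9 had 0, 1 and 1. Chit1, the chitinase that the study inhibited, had 0 UMIs in all 3 libraries.

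Dclk1, a microtubule-associated kinase, had 0 UMIs in ND and 99.6 and 26.6 CPM in STZ-HFHC (at least 17.5-fold and 4.67-fold above the limit of ND, edgeR adjusted p = 0.0299). The STZ-HFHC libraries lay far apart, both above ND. Grip1, a scaffold of glutamate receptors, had 13.3, 219 and 160 CPM (edgeR adjusted p = 0.000826), beside 21.7, 575 and 422 CPM in hepatocyte nuclei. Of 8 genes listed as T, NK and B cell markers 2 were tested and both rose, beside 3.08% of all genes. Ptprc, the CD45 phosphatase, had 32.3, 130 and 116 CPM, and Themis, a T cell protein, had 17.1, 73.3 and 106 CPM. Of 10 macrophage markers 3 were tested and 0 were called by edgeR or DESeq2, with 1 at an unadjusted p under 0.05. Endothelial nuclei held 63.6, 269 and 249 CPM of Ptprc, and hepatocyte nuclei held 28.1, 245 and 309 CPM of Themis, more than the stellate and fibroblast nuclei.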
